A study of Mus musculus with 11 samples.

Results

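Non-coding RNA was examined at a pair of genomic windows in mouse retina, one beside Lhx1 and one around Atoh7, as features of RNA depleted of polyadenylated transcripts. The members are every feature of the deposited table that overlaps either of these windows of the mm10 build. On chromosome 11 the window reaches from 25535 bases below the annotated Lhx1 start to 124465 bases above it (the Lhx1 side), and on chromosome 10 from 119651 bases below the Atoh7 start to 100349 bases above it (the Atoh7 side). They number 24 of the 36097 unique features in the table, 19 on the Lhx1 side and 5 on the Atoh7 side. The windows were picked with the difference between the groups already known, so the differences between the groups inside them are a description: no p-value is given for them, and where calls from the fit of all features are counted, nothing is read from the count. The groups are 6 Nrl knock-out libraries and 5 wild-type libraries, all from retina at postnatal day 21, and no treatment is labelled. The labels do not give the deleted part of Nrl, the strain, or how many animals went into a library, so the spread between libraries may be partly technical.

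Lhx1 encodes a LIM homeodomain transcription factor that in the retina marks horizontal cells and is needed for their place in the inner nuclear layer. Atoh7 encodes a basic helix-loop-helix transcription factor of retinal progenitors that is required for most retinal ganglion cells to form. Nrl is the factor that makes newborn photoreceptors become rods; without it, mouse retinas are known to carry cone-like cells in their place. Active enhancers are often transcribed, commonly in both directions from a shared centre, into RNAs that mostly lack a poly(A) tail, which is the kind of RNA these libraries keep. In human, loss of a remote enhancer upstream of ATOH7 is a known cause of congenital retinal nonattachment.

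No feature of the table overlaps Lhx1, Lhx1os or Atoh7 themselves, on either strand. Of the 24 features, 22 are intergenic by the GENCODE M21 annotation. The other 2 lie inside coding genes on the opposite strand and touch no exon, MSTRG.9176 in Hnrnph3 and MSTRG.9179 in Pbld2, so the name intergenic fits all but these. By strand, the Lhx1 side has 18 features on the plus strand and 1 on the minus strand, and the Atoh7 side has 2 and 3. Of the 24, 18 had a mean of at least 5 normalised counts over the 11 libraries and entered the fit of all features. Of those 18, 12 had a wild-type mean under 5 and so passed through the knock-out libraries alone. The 6 features below the limit had means of 2.41 to 4.76.

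The annotated start sites nearest to the features are shown first, since the features are described by their distance from them. The 300-base windows below run from 250 bases before to 50 bases after a start and are RefSeq sequences of build GRCm38.p6; the RefSeq start of Atoh7 lies inside the GENCODE gene, and distances elsewhere are from GENCODE starts. Capitals mark matches to 4 short motifs, searched on both strands: TAATCC, the core bound by Crx and Otx2, TGCTGA, a half-site of the Maf family to which Nrl belongs, and the E-box forms CAGCTG and CAGATG bound by helix-loop-helix factors. The Atoh7 window lies at chr10:63099535-63099834 on the plus strand.
Atoh7: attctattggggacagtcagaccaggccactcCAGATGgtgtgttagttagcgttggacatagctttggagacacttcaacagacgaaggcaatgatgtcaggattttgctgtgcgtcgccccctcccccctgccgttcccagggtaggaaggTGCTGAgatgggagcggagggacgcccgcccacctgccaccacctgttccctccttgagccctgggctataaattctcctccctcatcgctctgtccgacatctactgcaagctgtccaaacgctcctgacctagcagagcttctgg
The Lhx1os window lies at chr11:84525410-84525709 on the plus strand, the strand of most Lhx1-side features.
Lhx1os: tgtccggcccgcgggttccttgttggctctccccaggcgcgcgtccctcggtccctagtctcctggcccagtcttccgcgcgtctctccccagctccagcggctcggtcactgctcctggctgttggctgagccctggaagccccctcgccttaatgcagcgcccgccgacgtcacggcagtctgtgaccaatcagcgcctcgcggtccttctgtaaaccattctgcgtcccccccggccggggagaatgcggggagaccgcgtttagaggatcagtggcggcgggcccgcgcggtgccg
The Atoh7 window holds 1 TGCTGA at position -97 from the start and 1 CAGATG at position -218. Of the 32851 promoter windows in the same table, 19.5% hold TGCTGA, 17.2% CAGATG, 16.3% CAGCTG and 7.06% TAATCC. The Lhx1os window and the Lhx1 window, which shares 225 of its bases on the opposite strand, hold none of the 4 letter strings. Lhx1 and Lhx1os, an annotated long non-coding RNA gene, start 124 bases apart and run away from each other.

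The libraries matched their labels at the Nrl locus. MSTRG.28375, the feature opposite to Nrl, held 0 to 0.758 normalised counts in knock-out libraries, with 5 at 0, against 33.3 to 55.5 in wild-type libraries. A normalised count is the authors' read count divided by a scaling factor for the library. Over the listed features the libraries held 3374221 to 4876429 reads in knock-out and 3238184 to 4150460 in wild-type. Of 42 tested features at rod genes, 31 fell and 4 rose, and the listed rod features summed to 519 to 888 normalised counts in knock-out libraries and 3602 to 6015 in wild-type libraries. Of 29 tested features at cone genes, 17 rose and 3 fell, with sums of 1351 to 2036 in knock-out libraries and 552 to 819 in wild-type libraries. Sums at bipolar genes were 824 to 1382 in knock-out and 656 to 1030 in wild-type, and those at amacrine genes 108 to 219 and 146 to 321. Of 7 Müller glia genes 1 had tested features, Car2 with 2 features of which 1 fell, and the listed features of that list summed to 12.7 to 25.9 in knock-out and 28.2 to 52.7 in wild-type. Features of the retinal pigment epithelium list summed to 72.8 to 185 in knock-out and 141 to 256 in wild-type. Of its 10 tested features, all at Trpm3, 1 fell and 9 did not pass. The microglia list had 1 feature, which was not tested, and no feature lay at a vascular gene. Of all features tested, 15.6% rose and 12.6% fell. The sums at rod and cone genes, and that of the few Müller glia features, move with the genotype, as do many features near Lhx1 and Atoh7. The part of these sums in the values below was not tested. In whole retina, fewer cells of a type and less RNA per cell cannot be told apart.

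**Figure D1:**
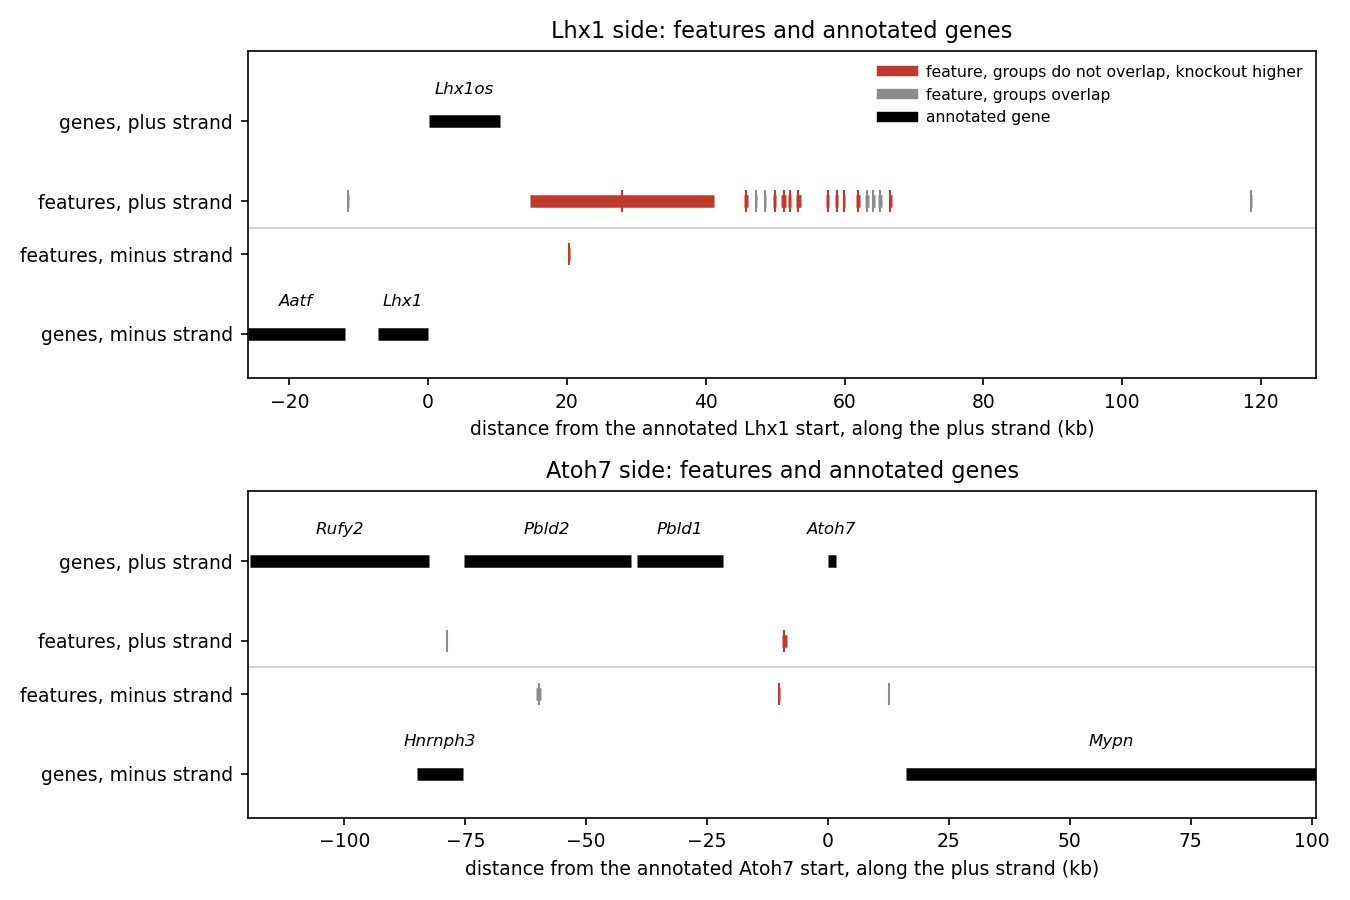
Features and annotated genes of each window by strand, with distance in kb from the annotated Lhx1 start (upper panel) or Atoh7 start (lower panel), negative to the left on the plus strand. Red marks the 12 Lhx1-side and 2 Atoh7-side features whose knock-out values all lie above the wild-type values; grey marks the 7 and 3 whose groups overlap.

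On the Atoh7 side, a divergent pair of intergenic features upstream of Atoh7 was higher in every knock-out library than in any wild-type library. MSTRG.9182 (chromosome 10, 63089353 to 63089777, minus strand) and MSTRG.9183 (63090042 to 63091161, plus strand) are 264 bases apart and point away from each other. MSTRG.9183 ends 8489 bases before the Atoh7 start, on the strand of Atoh7, and the middle of the gap between them lies 9742 bases before it. They are 425 and 1120 bases long. Whether they hold an enhancer was not measured here.

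MSTRG.9183 held 49.9, 75.7, 43.2, 56.6, 28.8 and 37.1 normalised counts in knock-out 1 to 6, against 15.1, 7.53, 0.928, 7.74 and 6.05 in wild-type 1 to 5. The lowest knock-out library, knock-out 5, stood above the highest wild-type library, wild-type 1. The means were 48.6 ± 16.5 (SD, n = 6) and 7.47 ± 5.07 (SD, n = 5), and the log2 difference of log2(normalised count + 1) was 2.77 (SE 0.38). Leaving out wild-type 3, whose value rests on 1 read, gave 2.30, and leaving out wild-type 1 gave 3.07.

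MSTRG.9182, on the other strand, held 18.7, 16.2, 7.47, 23.0, 11.4 and 10.7 normalised counts in knock-out 1 to 6, against 0, 1.88, 0, 1.93 and 1.01 in wild-type 1 to 5. It was thus near 0 throughout wild-type: 93 reads lay in the 6 knock-out libraries and 5 reads in the 5 wild-type libraries. Per unit of depth the ratio was 13.9, and counting error alone allows 5.75 to 43.9 (exact, 95%). The log2 difference was 3.06 (SE 0.43) with a pseudocount of 1, but 1.68 with a pseudocount of 5 and 3.795 in DESeq2, so its size is not well fixed. Wild-type 1 and 3 had 0 reads, and the limit of 3 reads that this allows is 4.11 normalised counts in wild-type 1 and 2.78 in wild-type 3.

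Summed over both features, the pair held 63.1 ± 20.2 normalised counts in knock-out (SD, n = 6) and 8.43 ± 5.12 in wild-type (SD, n = 5), a ratio of the means of 7.49. The plus-strand feature took the larger part in every library, 71.1% to 85.3% of the pair in knock-out and 80.0% to 100% in wild-type, where the pair rests on 1 to 11 reads per library. Per kb of feature the strands were closer in knock-out, with 43.4 normalised counts for MSTRG.9183 and 34.3 for MSTRG.9182. In wild-type the levels per kb were 6.67 and 2.27.

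The other 3 Atoh7-side features had overlapping groups. MSTRG.9179 (63039240 to 63040392, minus strand), in an intron of Pbld2, was the most abundant of all 24 features. It held 283, 345, 185, 334, 166 and 184 normalised counts in knock-out 1 to 6, against 225, 139, 118, 124 and 95.8 in wild-type 1 to 5. Apart from wild-type 1, all wild-type libraries lay below the lowest knock-out library. The means were 249 ± 81.1 (SD, n = 6) and 140 ± 49.8 (SD, n = 5), a log2 difference of 0.82 (SE 0.23). It is antisense to its host, and the use of strand in counting is not stated. Its reads and those of Pbld2 introns therefore cannot be told apart with certainty. The same limit holds for the feature opposite to Nrl and for the antisense features named below. MSTRG.9176 (63020765 to 63020886, plus strand), inside Hnrnph3, averaged 2.26 ± 1.35 in knock-out (SD, n = 6) and 2.62 ± 2.76 in wild-type (SD, n = 5). MSTRG.9189 (63112166 to 63112350, minus strand), between Atoh7 and Mypn, averaged 1.33 ± 0.831 in knock-out and 3.91 ± 3.72 in wild-type. The groups overlapped at both, and MSTRG.9189 had 9 reads in knock-out and 20 in wild-type.

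On the Lhx1 side, a run of plus-strand features beyond the end of Lhx1os was about 3.6-fold higher in knock-out. It begins 4443 bases past the annotated end of Lhx1os, on the same strand, and spans 52091 bases (chromosome 11, 84540275 to 84592365), when plus-strand features within 10000 bases of each other are joined. It holds 16 features, from MSTRG.16029 to MSTRG.16045, with gaps of 354 to 4261 bases (median 814). The plus-strand features on either side of it are 26146 bases before and 51523 bases after. Whether the run is 1 transcript that continues Lhx1os, or several, cannot be told from the table.

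Summed over the 16 features, the run held 167, 232, 237, 181, 254 and 238 normalised counts in knock-out 1 to 6, against 54.9, 64.9, 71.5, 61.9 and 52.5 in wild-type 1 to 5. The lowest knock-out library held more than 2 times the highest wild-type library. The means were 218 ± 35.2 (SD, n = 6) and 61.1 ± 7.69 (SD, n = 5), a ratio of 3.57, from 1445 and 302 reads. The run thus had a low level in every wild-type library. Its SD was 12.6% of its mean in wild-type and 16.1% in knock-out. Without its first feature, MSTRG.16029, the SD was 19.05% of the mean in wild-type and 14.88% in knock-out, so the order of the spreads depends on that feature.

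**Figure D2:**
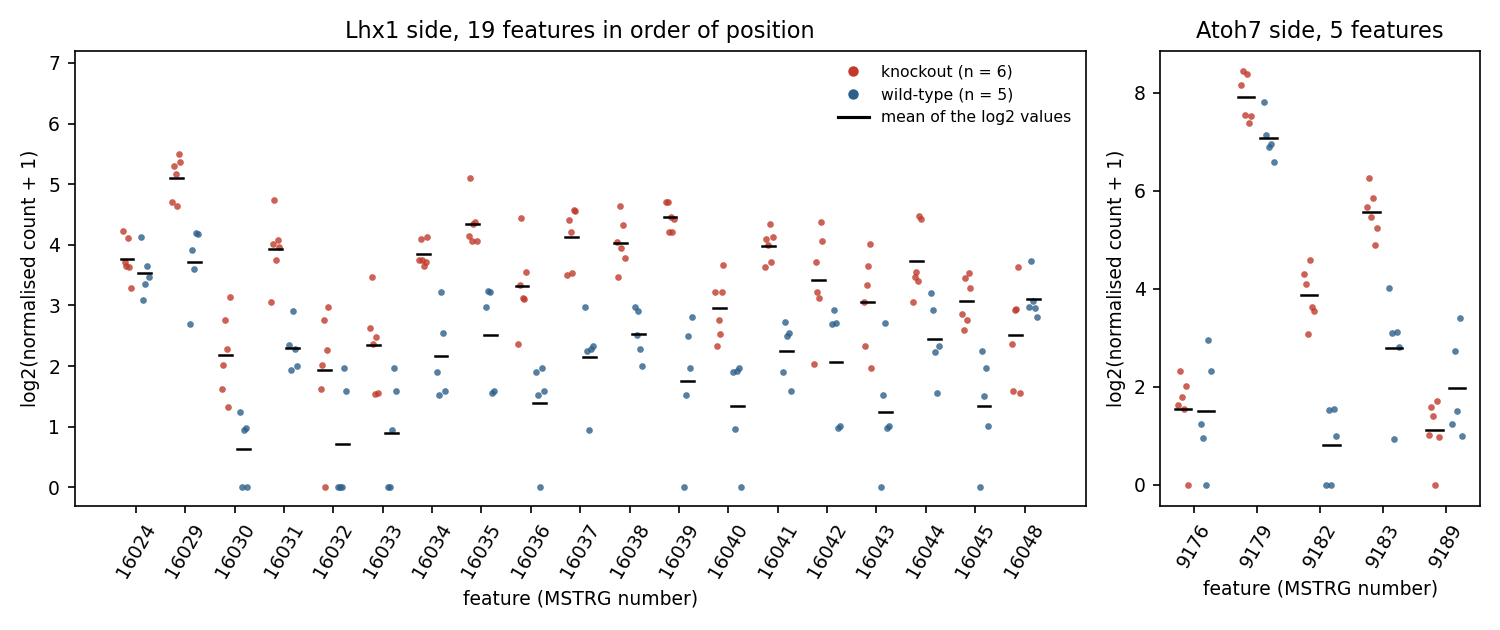
Log2(normalised count + 1) of each of the 24 features in each library, in order of position, with knock-out points (red, n = 6) left of wild-type points (blue, n = 5) and a bar at the mean of the log2 values. All run features from MSTRG.16029 to MSTRG.16045 have the higher mean in knock-out, while MSTRG.16024, MSTRG.16048, MSTRG.9176 and MSTRG.9189 have overlapping groups with means close together or lower in knock-out.

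The long first feature, MSTRG.16029 (84540275 to 84566748), spans 26474 bases and starts 14739 bases beyond the Lhx1 start. It held 24.96, 38.4, 34.9, 24.0, 44.0 and 40.0 normalised counts in knock-out 1 to 6, against 5.49, 14.1, 11.1, 17.4 and 17.1 in wild-type 1 to 5. The groups did not overlap, and the log2 difference was 1.39 (SE 0.28). Per kb of its span it had 1.30 normalised counts in knock-out and 0.493 in wild-type, far below its neighbours; its exons are not listed in the table, so its level per kb of exon is unknown.

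The other 15 features of the run are short, 125 to 775 bases, and cover 7061 bases together. Each had the higher mean in knock-out, with means of 3.59 to 21.1 normalised counts in knock-out and 0.984 to 5.53 in wild-type. Per kb they held 15.8 to 42.1 normalised counts in knock-out (median 26.2) and 3.89 to 10.2 in wild-type (median 7.36). None of these short features reached, in wild-type, the lowest mean level per kb seen among them in knock-out.

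**Figure D3:**
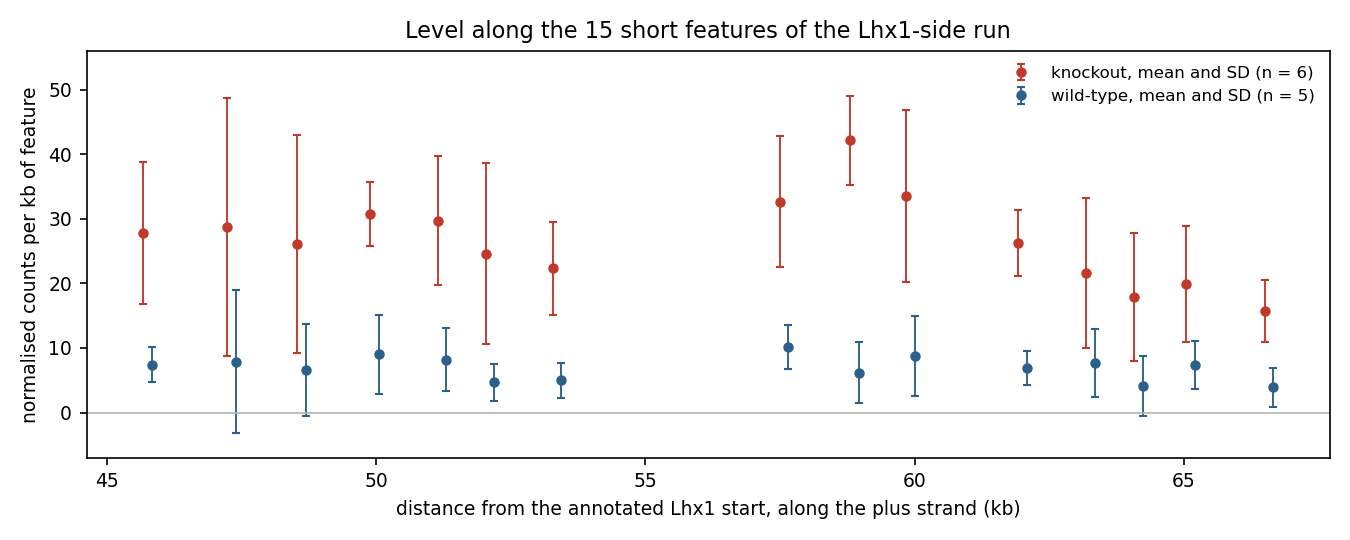
Normalised counts per kb of feature (mean and SD) along the 15 short features of the Lhx1-side run, against distance in kb from the Lhx1 start, with knock-out in red (n = 6) and wild-type in blue (n = 5). Knock-out means lie between 15.8 and 42.1 and wild-type means between 3.89 and 10.2, with the highest knock-out mean at MSTRG.16039 and the lowest at the last feature, MSTRG.16045.

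MSTRG.16039 (84584166 to 84584666) differed most. It held 24.96, 25.2, 17.4, 21.1, 17.4 and 20.5 normalised counts in knock-out 1 to 6, against 0, 1.88, 4.64, 2.90 and 6.05 in wild-type 1 to 5. Knock-out libraries were close to each other, and all lay well above wild-type. The log2 difference was 2.69 (SE 0.40), 2.25 without wild-type 1, which had no read, and 1.73 with a pseudocount of 5.

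In 11 of the 16 run features the knock-out and wild-type libraries did not overlap; among all listed features 8.28% were separated with knock-out higher, and nothing is read from the count. The 5 with overlap were MSTRG.16032, MSTRG.16033, MSTRG.16042, MSTRG.16043 and MSTRG.16044, of which the first 2 were below the limit for the fit. MSTRG.16042 (84588549 to 84589061) shows the overlap: it held 3.12, 12.1, 8.30, 7.68, 19.7 and 15.6 normalised counts in knock-out 1 to 6, against 5.49, 6.59, 5.57, 0.967 and 1.01 in wild-type 1 to 5. Knock-out 1 lay below 3 of the wild-type libraries. Over the run the log2 differences ranged from 1.23 (SE 0.58) at MSTRG.16032, taken from the fit without a limit on the mean, to 2.69 at MSTRG.16039.

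MSTRG.16030 (84545786 to 84545909), the only minus-strand feature on the Lhx1 side, lies within the span of MSTRG.16029. It held 2.08, 3.03, 5.81, 3.84, 1.52 and 7.81 normalised counts in knock-out 1 to 6, against 1.37, 0, 0.928, 0.967 and 0 in wild-type 1 to 5. The groups did not overlap, but with 26 and 3 reads counting error alone allows 1.99 to 33.5 around the ratio of 6.48 (exact, 95%).

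The plus-strand features on either side of the run had overlapping groups. MSTRG.16024 (84513781 to 84514128), between Aatf and Lhx1, averaged 12.98 ± 3.35 normalised counts in knock-out (SD, n = 6) and 10.99 ± 3.39 in wild-type (SD, n = 5). Its log2 difference was 0.23 (SE 0.29). MSTRG.16048 (84643889 to 84644176), beyond the far end of the run, averaged 5.48 ± 3.57 in knock-out and 7.87 ± 2.49 in wild-type, a log2 difference of -0.60 (SE 0.40). Both differences are within the spread between libraries.

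Over the whole Lhx1 side the groups did not overlap in 12 of 19 features, and on the Atoh7 side in 2 of 5, all with knock-out higher. Among all listed features the share separated in that direction was 8.28%. In the fit of all features (limma, Benjamini-Hochberg adjusted p below 0.05), 13 of the 15 Lhx1-side features tested and 3 of the 3 Atoh7-side features tested were called higher in knock-out. Of all 21395 features tested, 15.6% were called higher and 12.6% lower. limma called 0 of these features lower, with 0 at an unadjusted p under 0.05, and edgeR and DESeq2 called 0. Since the windows were chosen on this difference, and since most features passed the limit only through knock-out, nothing is read from these counts. Over all members the median log2 difference, with no limit on the mean, was 1.61 on the Lhx1 side and 0.82 on the Atoh7 side, against -0.0064 over all features.

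The Lhx1-side run and the Atoh7-side features did not order the knock-out libraries alike. MSTRG.9183 and MSTRG.9179 put the knock-out libraries in the same order, with 2 highest, then 4, 1, 3, 6 and 5. The sum of the pair had this order too, but most of it is MSTRG.9183. MSTRG.9182, the minus-strand member of the pair, had another order, with 4 highest, then 1, 2, 5, 6 and 3. The run had knock-out 5 highest, then 6, 3, 2, 4 and 1. The ratio of the run to the pair was therefore 2.28 to 2.53 in knock-out 1, 2 and 4, and 4.69 to 6.32 in knock-out 3, 5 and 6.

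The share of reads in the 10 most abundant features, a property of the whole library, was highest in knock-out 2 (53.5%) and knock-out 4 (47.9%) and lowest in knock-out 5 (33.9%). In wild-type it was highest in wild-type 1 (46.4%), the library with the most of MSTRG.9179 and MSTRG.9183. The knock-out libraries highest and lowest by this share were thus also highest and lowest for MSTRG.9183 and MSTRG.9179, while in wild-type the orders shared the highest library and differed below it: wild-type 3 was next by share (40.8%) but lowest for MSTRG.9183. The part of this share in the Atoh7-side levels was not tested.

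**Figure D4:**
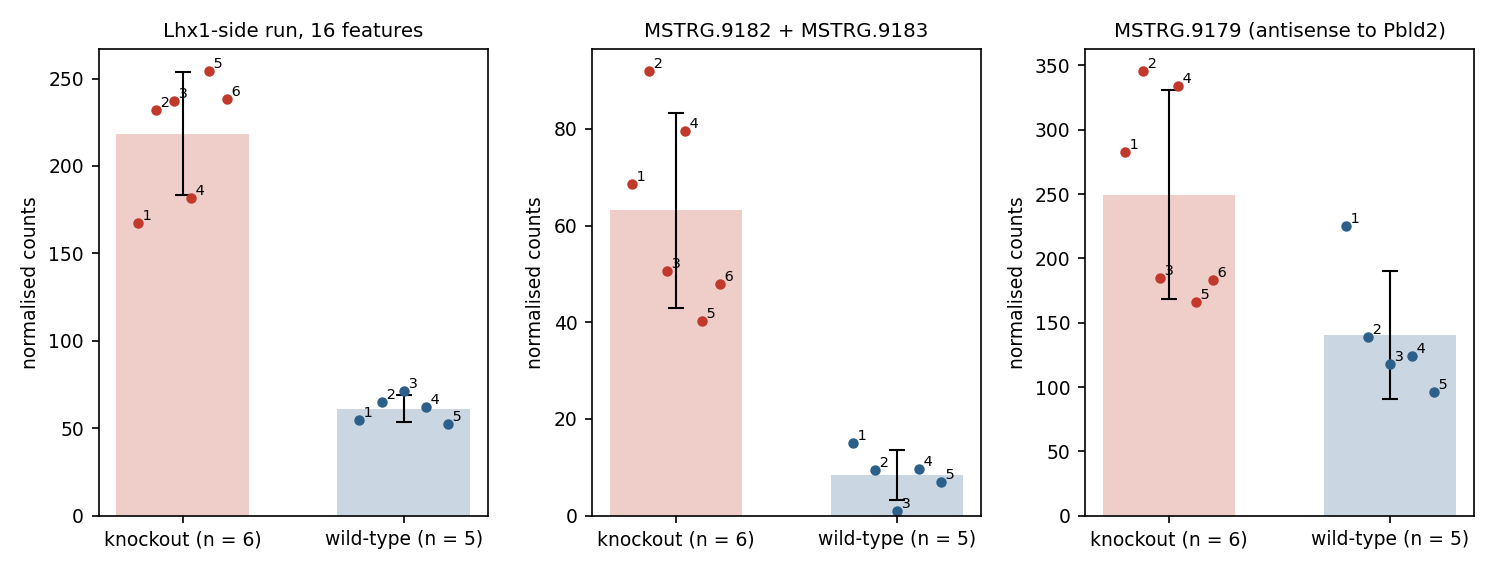
Normalised counts of the Lhx1-side run of 16 features, of the divergent pair near Atoh7, and of MSTRG.9179 in each library, with bars at the group mean, error bars of 1 SD and each point labelled with its replicate number (knock-out n = 6, wild-type n = 5). Knock-out 5 is the highest knock-out library for the run and the lowest for the pair and for MSTRG.9179.

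Profiles over the 11 libraries of tested features outside both windows were compared with those of MSTRG.16029, MSTRG.9182 and MSTRG.9183. Of the features compared, the closest to each lay on other chromosomes. The share of compared features on each chromosome was not counted, so nothing is read from where they lay. Features inside the windows were left out, so likeness between members was not examined here. Closeness was the root mean square difference of log2 values after each profile was centred on its own mean. For MSTRG.16029 the closest were the intergenic MSTRG.52216 on chromosome 2 (0.23 on the log2 scale), MSTRG.19091 on chromosome 12 (0.24) and MSTRG.40640 on chromosome 17 (0.25). For MSTRG.9182 they were MSTRG.86510 on chromosome 8, antisense to March1 (0.28), MSTRG.24361 on chromosome 13 and MSTRG.32605 on chromosome 15 (0.31 each). For MSTRG.9183 they were MSTRG.40628 on chromosome 17 (0.22), MSTRG.20738 on chromosome 12 (0.28) and MSTRG.18678 on chromosome 12 (0.35).

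Features in the flanks of the windows, 500000 bases on each side, are not members and were tested. Around Atoh7, limma called 0 of 11 flanking features, with 1 at an unadjusted p under 0.05, and edgeR and DESeq2 each called 0. The median log2 difference of these 11 was 0.022. Around Lhx1, 1 of 12 flanking features rose, 2 fell and 9 did not pass, with a median of -0.10. Over all features tested 28.1% passed in either direction.

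The 3 flanking calls near Lhx1 were all far from the run. MSTRG.16050 (84707476 to 84707855, minus strand, intergenic), 57476 bases past the window's right edge, held 21.8, 12.1, 19.1, 19.2, 11.4 and 10.7 normalised counts in knock-out 1 to 6, against 0.941 in wild-type 2 and 0 in the other wild-type libraries. It was thus almost without reads in wild-type, 1 read against 102 in knock-out. The ratio per unit of depth was 76.3 (exact 95% interval for counting error 13.4 to 3043), and the log2 values differed by 3.82 (SE 0.40), with a limma adjusted p of 1.63e-08; the difference was 1.97 with a pseudocount of 5 and 5.70 in DESeq2. MSTRG.16018 (84243624 to 84244176), antisense to Acaca, the gene of the fatty acid synthesis enzyme acetyl-CoA carboxylase, fell to 1.90 ± 1.25 in knock-out (SD, n = 6), against 21.1 ± 10.2 in wild-type (SD, n = 5), with a limma adjusted p of 2.03e-06. MSTRG.16080 (85006690 to 85007338), antisense to the deubiquitinase gene Usp32, fell to 9.99 ± 1.89 in knock-out, against 41.6 ± 16.4 in wild-type (limma adjusted p = 5.80e-06).

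The features nearest to the other edges of the windows were low. Left of the Lhx1 window the nearest feature outside was MSTRG.16020, with 10.8 ± 3.58 in knock-out and 7.93 ± 6.12 in wild-type, and MSTRG.16024 was the nearest inside. The right edge lies between MSTRG.16048 inside and MSTRG.16050 outside. Around Atoh7, MSTRG.9157 (8.80 ± 5.30 in knock-out and 6.25 ± 3.25 in wild-type) and MSTRG.9196 (4.27 ± 2.51 and 1.68 ± 1.204) were the nearest outside, and MSTRG.9176 and MSTRG.9189 the nearest inside.

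**Figure D5:**
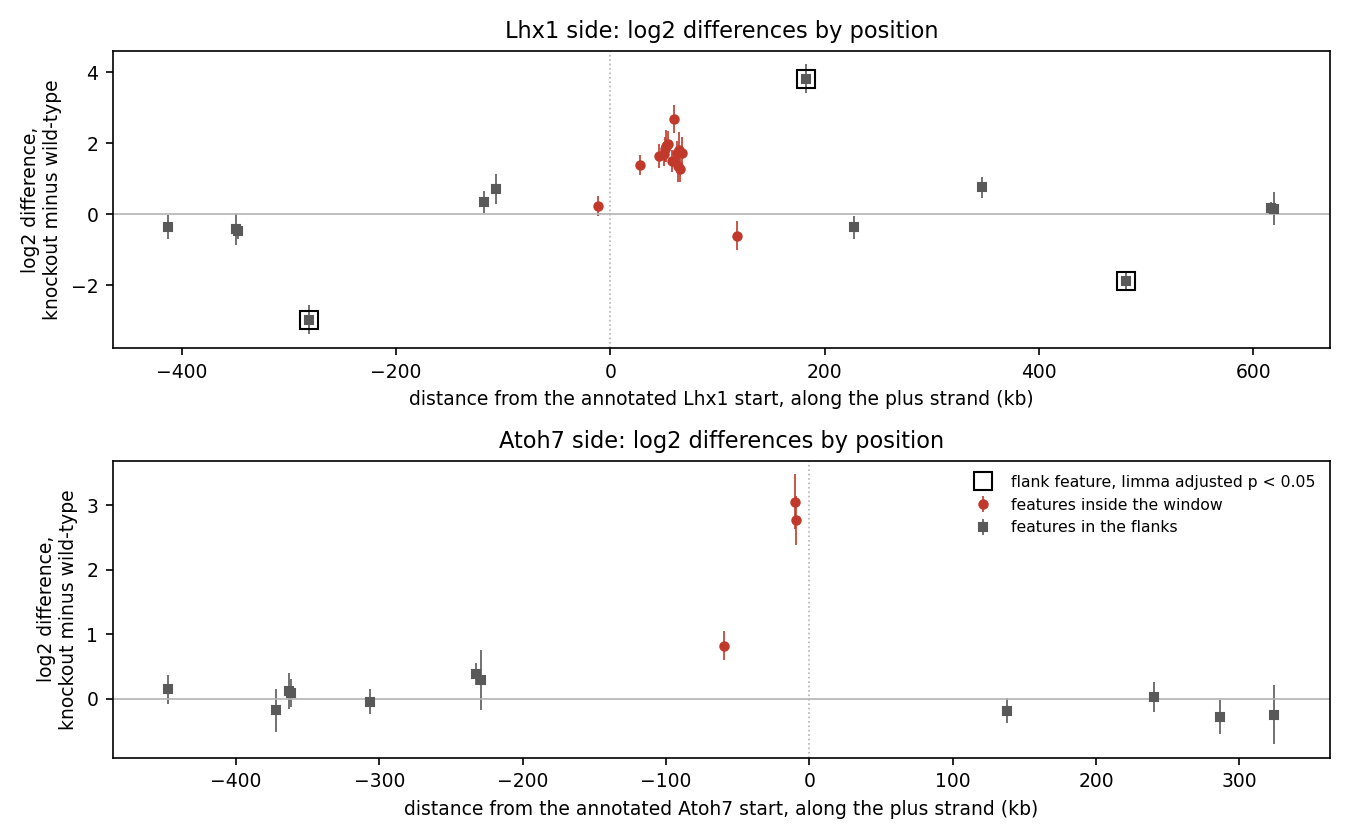
Log2 difference, knock-out minus wild-type (error bars 1 SE), of the tested features inside the windows (red circles) and in the flanks (grey squares), by distance in kb from the Lhx1 or Atoh7 start. In the flanks 3 features passed the test (open black squares), all around Lhx1, the highest being MSTRG.16050 at 3.82.

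The table also lists, for each feature's chromosomal domain, mRNAs that the authors found higher or lower, by a method that the labels do not describe. In the authors' deposited table, the domain of the Atoh7-side features lists Atoh7, Dna2, Hkdc1, Pbld2, Srgn and Tet1 as higher and Hk1 as lower. The domain thus has the coding neighbour of the divergent pair and the host of MSTRG.9179 on its list of higher mRNAs. The domain of the Lhx1-side features lists Dhrs11 as higher and no mRNA as lower, so Lhx1 is on neither of its lists.

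Features were also counted at other genes of horizontal cells, of ganglion cells, and of the regulators and partners of Atoh7 and Lhx1. Calls went in both directions only in the list of regulators and partners. Of 57 tested features at these genes, 9 rose, 10 fell and 38 did not pass, with a median log2 difference of -0.20. That is 33.3% called, beside 28.1% of all features tested.

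Of 22 features at 9 horizontal cell genes, 4 fell and 18 did not pass; of all features tested, 12.6% fell. limma called 0 of them higher, with 0 at an unadjusted p under 0.05, and edgeR and DESeq2 each called 0. MSTRG.31990, antisense to Ndrg1, a stress-responsive gene, fell to 2.13 ± 1.44 normalised counts in knock-out (SD, n = 6), against 24.0 ± 5.21 in wild-type (SD, n = 5), with a limma adjusted p of 6.66e-08. The other falls were at Rorb, a nuclear receptor gene also needed by photoreceptors (log2 differences -2.90 and -2.88), and at Prox1, a homeobox gene of horizontal cells (-1.06). The most abundant uncalled feature, MSTRG.92014 antisense to Megf11, a gene for horizontal cell spacing, had 2098 ± 230.4 in knock-out and 2319 ± 218 in wild-type.

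Of 8 features at 7 ganglion cell genes, 1 rose and 7 did not pass; of all features tested, 15.6% rose. limma called 0 lower, with 0 at an unadjusted p under 0.05, and edgeR and DESeq2 each called 0. MSTRG.54625, antisense to Myt1, a zinc finger transcription factor gene, had 23.4 ± 5.41 in knock-out (SD, n = 6) and 11.9 ± 4.40 in wild-type (SD, n = 5), a log2 difference of 0.98 (SE 0.30, limma adjusted p = 0.0129). Without wild-type 3 its adjusted p was 0.0614. MSTRG.84047, antisense to Ebf3, a helix-loop-helix factor gene of ganglion cell differentiation, had 197 ± 44.4 in knock-out and 225 ± 82.9 in wild-type and was not called.

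Among regulators and partners, 8 of 28 features rose, 6 fell and 14 did not pass, over 17 genes, beside 15.6% higher and 12.6% lower of all features tested. The features that rose were at Otx2 and Ldb2, with more than a single feature each, and at Neurod1, Lhx4 and Notch1. Otx2 is also in the list of bipolar genes, so its features count in both lists. MSTRG.47920, antisense to the Notch1 receptor gene, had a log2 difference of 3.97 (SE 0.27), and MSTRG.49950, antisense to the helix-loop-helix gene Neurod1 and to Cerkl, one of 1.84 (SE 0.42). The 6 that fell were at Ldb2, which encodes a cofactor that binds LIM homeodomain proteins, at Ssbp2 and at Ssbp4, which encode proteins that bind such cofactors. MSTRG.25663, antisense to Ssbp2, fell to 0.920 ± 1.21 in knock-out (SD, n = 6), against 41.8 ± 19.1 in wild-type (SD, n = 5), with a limma adjusted p of 4.21e-09. Ldb2 had features in both directions, 4 lower and 2 higher. MSTRG.68001, antisense to Rbpj, the DNA-binding protein of Notch signalling, had 147.5 ± 27.6 in knock-out and 131 ± 18.3 in wild-type and was not called.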

How the data were processed

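Retina libraries were sequenced as 50 bp stranded single-end reads after depletion of poly(A) RNA, per the labels' protocols. The deposited signal values are read counts that the authors divided by DESeq2 size factors, on mm10, as the name of the table says. Tools named in the submitters' processing notes, with no role, are Cuffdiff, Cufflinks 2.2.1 and TopHat2 2.0.10, and builds are mm9 and mm10. Starts in the table count from 0 (140 of 140 Ensembl-named features that matched GENCODE M21 began 1 base early) and are printed counting from 1.

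The table has 36180 lines and 36097 unique features. All values were whole multiples of the library's lowest value above 0 (tolerance 0.001), which gives the reads. limma 3.58.1 in R 4.3.3 (eBayes with trend and robust) was fitted to log2(normalised count + 1) of the 21395 features with a mean of at least 5, with group as the only term, two-sided, adjusted by Benjamini-Hochberg, calls at 0.05. As alternatives, edgeR 4.0.16 and DESeq2 1.42.0 took the recovered reads of 9 libraries, 5 knock-out and 4 wild-type. Knock-out 2 and wild-type 5, where 1 read is close to 1 normalised count, were left out. Differences between these results and those of limma may come from the tool or from the libraries left out. On simulated data (21395 features) limma called 56 of 61 features simulated at 4-fold, 25 of 70 at 2-fold and 2 of 69 at 1.5-fold, besides 2 false ones. Simulated counts were drawn independently, with a dispersion of 0.05 that was set and not estimated from these libraries. The recovery and the number of false calls may therefore differ in the data themselves. Intervals and floors cover counting error only. No pair of libraries was identical.

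The windows, gene lists, motifs and tests were chosen with earlier results of these data known. All members were described; of the flanks, the 3 calls of largest difference per window were named, and of each list the called feature of largest difference and the uncalled one of highest mean. Other list features named at Rorb, Prox1, Otx2, Neurod1, Lhx4, Notch1, Ldb2 and Ssbp4 were chosen after their values were seen. Sequences of the features were not analysed here.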

Additional observations from a re-analysis of the deposited data

Results flagged for a closer look

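A library stood apart from the rest of its group, by Dixon's test at the 95% level, in 4 of the 80 groups of values tested; chance flags about 1 in 20. For MSTRG.16035, a feature of the Lhx1-side run, knock-out 2 held 33.3 normalised counts and the next library 19.7, a gap of 0.769 of the range. For MSTRG.16048, beyond the run, wild-type 2 held 12.2 and the next 7.42 (0.778 of the range). For MSTRG.16050, in the Lhx1 flank, wild-type 2 held 0.941, which is 1 read, and all others 0 (1.0 of the range). For MSTRG.31990 at Ndrg1, knock-out 6 held 4.88 and the next 2.28 (0.673 of the range).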

How the results depend on the processing

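Alternatives were computed for the 18 features near Lhx1 and Atoh7 with a mean of at least 5 and, in 2 cases, for MSTRG.16040. These 322 values kept their direction, and 8 lost the call. The windows were chosen on this difference and the fits share libraries, so nothing is read from the kept direction. The other 5 features have 1 value each, from the fit without a limit on the mean. The size depends on the pseudocount: with 5 in place of 1, log2 differences of the run features tested were 0.82 to 1.73, against 1.28 to 2.69. MSTRG.16042 was not called by edgeR (1.28) or DESeq2 (1.25), nor without knock-out 2, 5 or 6 or wild-type 4 or 5 (1.08 to 1.30). MSTRG.9179 was not called by DESeq2 (0.61). Both tools took 9 libraries, so the part of the tool and that of the libraries left out cannot be told apart here. MSTRG.84047 at Ebf3 ranged from -0.29 to 0.030 with each library left out, the reversal being without wild-type 1; the cause was not tested. With a mean of at least 20, fewer features were tested, and 3350 of 8266 were called, against 6022 of 21395. On the Lhx1 side 1 of 1 was called, against 13 of 15, and on the Atoh7 side 2 of 2, against 3 of 3. In the flanks 1 of 11 was called, against 3 of 23, and at list genes 10 of 27, against 19 of 57. Leaving out each library in turn gave 5522 to 6269 calls over all features, 10 to 14 on the Lhx1 side, 3 on the Atoh7 side, 3 to 4 in the flanks and 18 to 20 at list genes. On the Lhx1 side 13 to 16 features were tested in these fits. MSTRG.16036, MSTRG.16043 and MSTRG.16045 entered 10, 9 and 7 of the 11 fits. In the others they fell below the limit on the mean and could not be called. The labels do not say that same-numbered libraries share anything but the number. Their deviations from the group means correlated at 0.0014 to 0.29, above 0.1 in 3 of 5 pairs, and numbers 1 and 5 matched best with their own number, so pairing was not shown. With the replicate number as a block (replicate block, knock-out 6 left out) 6932 features were called, against 5704 without knock-out 6 and without the block; 6 of the 6932 lay in the flanks, 1 of these near Atoh7. Depth limits the 6 features under a mean of 5 and the wild-type values of the short run features, which rest on 5 to 27 reads over 5 libraries.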
